A study of Papio hamadryas with 11 samples.

Results

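The protein genes of the mitochondrial ribosome were followed in liver RNA of 11 baboon fetuses near term. The members were all genes whose annotated symbol starts with MRPL or MRPS and a digit, the names given to proteins of the large and the small subunit. The array carried 113 such probes for 78 symbols, 49 of the large and 29 of the small subunit by name. A probe was kept where its detection p was under 0.05 on at least 5 arrays, and the brightest kept probe stood for its gene. This left 61 members, 35 of the large and 26 of the small subunit, among 10173 features measured in the same way. The rule used no group label, but a gene high on part of the arrays could pass through those arrays, as MRPL28, MRPL47, MRPS5 and MRPS21 did.

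The mitochondrial ribosome translates the few messenger RNAs that the mitochondrial genome encodes, which specify core subunits of the respiratory chain and of ATP synthase. All of its proteins are encoded in the nucleus, made in the cytosol and imported. Its small subunit holds the decoding centre, and its large subunit holds the peptidyl transferase centre and the tunnel through which the new chain leaves towards the inner membrane. Some of the proteins have a counterpart in bacterial ribosomes and others are found in mitochondria alone. Hepatocytes, the main parenchymal cells of the liver, are rich in mitochondria.

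The study compared fetuses of 5 obese mothers (maternal obese arrays MO1 to MO5) with fetuses of 6 control mothers (CON1 to CON6), to find the response of the primate fetal liver to maternal obesity. All were Papio hamadryas at 165 days, or 0.9 of gestation, and total RNA of each liver was hybridised to 1 human Illumina expression array. MO1 to MO3 were females and MO4 and MO5 males, and CON1 to CON3 were females and CON4 to CON6 males. The array names place the arrays on a pair of slides. Slide 2 held all 5 maternal obese arrays with CON5 and CON6, and slide 1 held CON1 to CON4. Maternal diet and weight, or any other treatment, are not stated in the labels. Each array is 1 fetus, and in whole liver fewer cells of a type and less RNA per cell cannot be told apart. Values are normalized log2 intensities, and a difference of 1 is a change of 2-fold. Because human probes differ in how well they bind baboon RNA, the level of a gene was compared between arrays and never with the level of another gene.

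Between 10131 and 13065 of 48803 probes were detected per array. Median intensities before normalization were 69.7 to 80.3 on slide 2 and 62 to 65.6 on slide 1. After normalization, the correlation of array pairs over all features lay between 0.93 and 0.982 (median 0.969 on the same slide, 0.953 on different slides). All 11 measured hepatocyte markers of 14 listed were detected on all 11 arrays. A score of 11 stellate cell and matrix markers stood at 2.14 on MO2, against -0.79 to 0.43 on the other 10 arrays. A score is the mean over genes of the difference from each gene's own mean over the 11 arrays.

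The mitochondrial ribosome was broadly detected. Of the 61 members, 51 were detected on all 11 arrays and the other 10 on 5 to 10. On the maternal obese arrays, 52 members were detected on all 5, and on the control arrays 54 were detected on all 6. The genes not kept were MRPL1, MRPL3, MRPL9, MRPL13, MRPL15, MRPL19, MRPL40, MRPL42, MRPL42P5, MRPL44, MRPL46, MRPL48, MRPL52, MRPL58, MRPS14, MRPS31P5 and MRPS34, each with its best probe detected on 0 to 4 arrays. MRPL42P5 and MRPS31P5 are annotated pseudogenes. MRPL3 and MRPL44, mutated in mitochondrial cardiomyopathy, MRPL58, a peptidyl-tRNA hydrolase built into the large subunit, and MRPS34, mutated in Leigh syndrome, were therefore not compared. No probe was annotated to MRPL27 or MRPS36, the second of which is now counted with the 2-oxoglutarate dehydrogenase complex. MRPS18A and MRPS30 carry small subunit names but lie in the large subunit in structures, and they are counted here by name.

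The large subunit score was 0.06, -0.24, 0.11, -0.12 and -0.01 on MO1 to MO5, against -0.01, 0.12, 0.28, -0.10, -0.09 and -0.01 on CON1 to CON6. MO2 was the lowest and CON3 the highest array, and the groups overlapped. Its mean was -0.0383 ± 0.141 on maternal obese arrays (SD, n = 5) and 0.0319 ± 0.148 on control arrays (SD, n = 6). The small subunit score was 0.03, -0.14, -0.00, -0.02 and -0.07 on MO1 to MO5, against -0.05, 0.11, 0.18, -0.10, 0.01 and 0.03 on CON1 to CON6. Again MO2 was the lowest and CON3 the highest, with means of -0.0386 ± 0.0674 on maternal obese arrays (SD, n = 5) and 0.0322 ± 0.103 on control arrays (SD, n = 6). The distance between the group means was less than the control SD in both subunits.

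**Figure D1:**
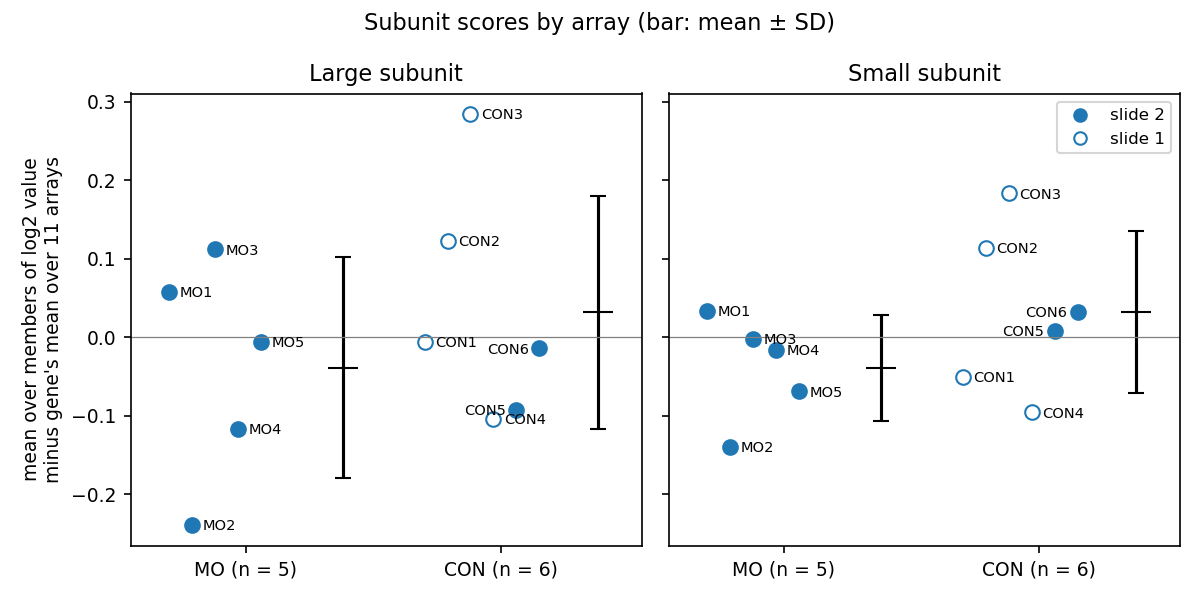
Subunit score of each array (vertical axis, log2 units), the mean over members of a gene's value minus its own mean over 11 arrays, for the large and the small subunit. Filled points are slide 2 and open points slide 1, and bars are the mean ± SD of MO (n = 5) and CON (n = 6). The groups overlap in both panels, with MO2 lowest at -0.24 and CON3 highest at 0.28 in the large subunit.

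By slide, the large subunit score averaged -0.0426 ± 0.117 on slide 2 (SD, n = 7) and 0.0745 ± 0.168 on slide 1 (SD, n = 4). The small subunit score averaged -0.0217 ± 0.0625 on slide 2 (SD, n = 7) and 0.038 ± 0.132 on slide 1 (SD, n = 4). The slides overlapped in both scores. On MO2, 17 of the 61 members lay above their own mean over the arrays, whereas 50.7% of all features did. CON3 had 40 of 61 members above their mean, whereas 39.6% of all features lay above theirs there. MO2 also had the highest stellate cell and matrix score and the lowest hepatocyte score (-0.33). CON3 had the lowest erythroid score (-0.96) with a hepatocyte score of 0.30. The part of other cell types in these subunit scores was not tested. The highest share of members above their mean was on MO1, with 47 of 61, whereas 56.5% of all features lay above theirs.

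**Figure D2:**
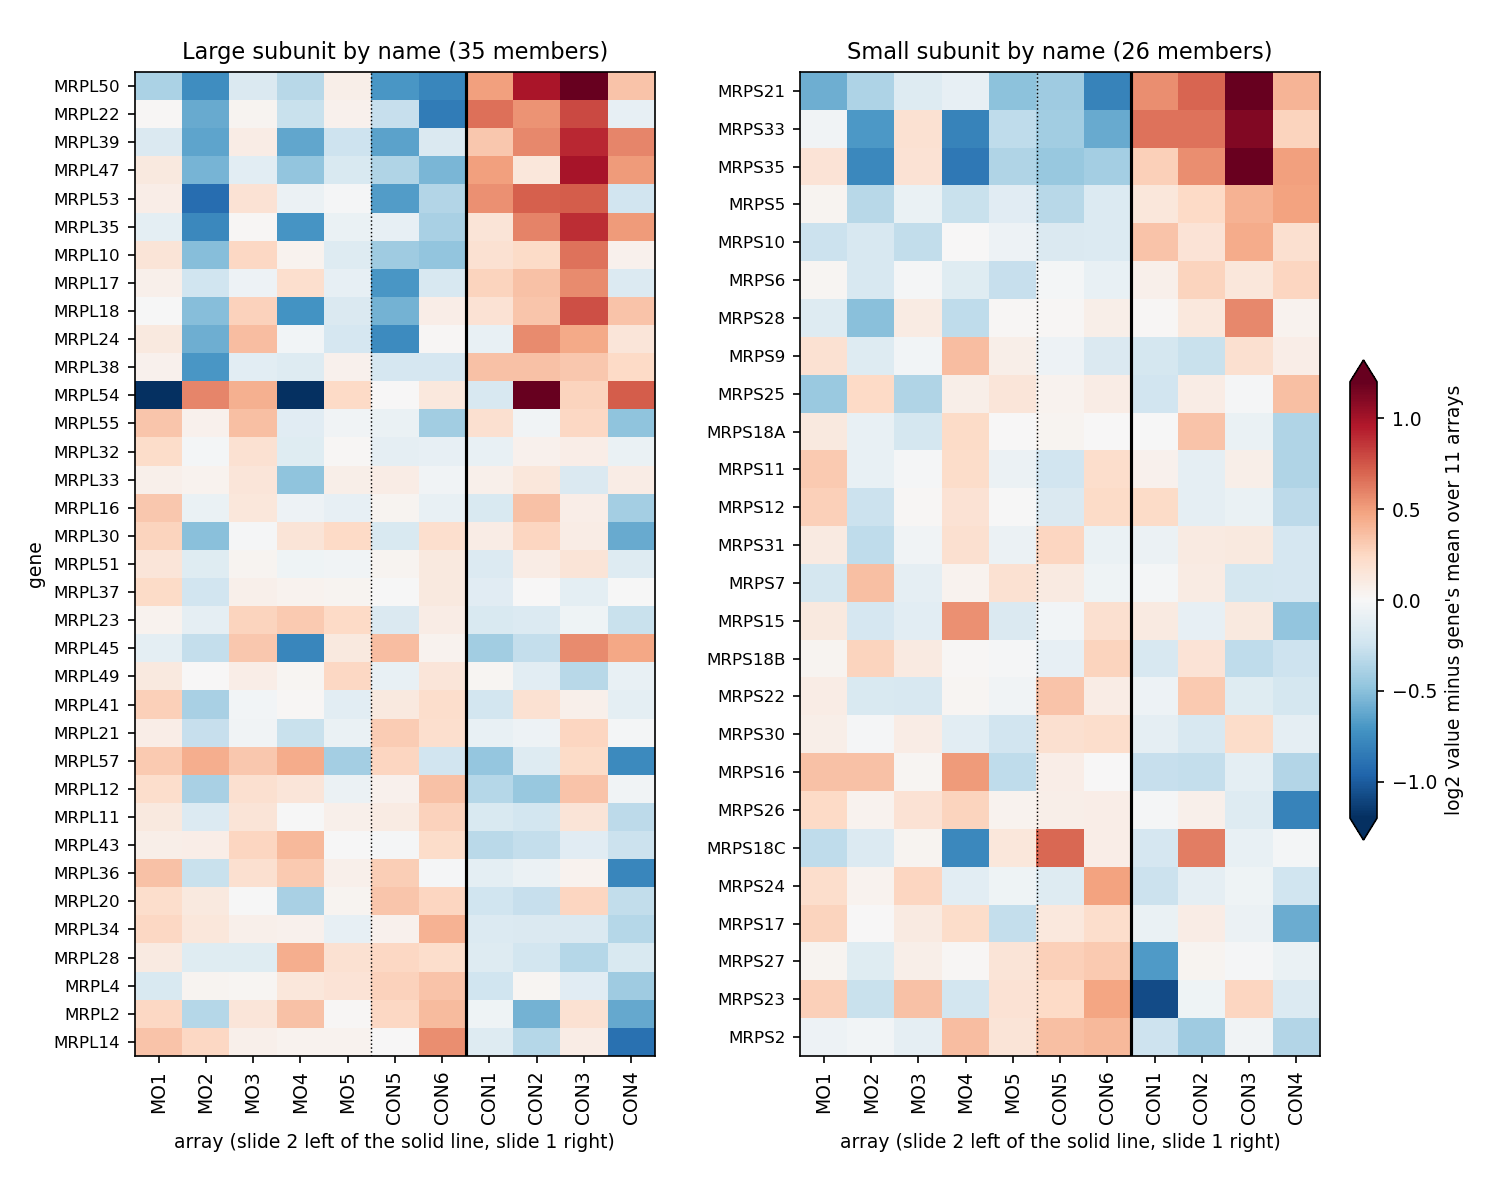
Each member (line) on each array (column), as log2 value minus the gene's mean over 11 arrays, in red above 0 and blue below 0, ordered by the difference between the slides. The dotted line divides MO from CON within slide 2 and the solid line divides slide 2 from slide 1. Members at the top, such as MRPL50 and MRPS21, are mostly blue on slide 2 and red on slide 1, while those at the bottom, such as MRPS2, mostly run the other way.

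Spread between arrays of 1 group was moderate. The SD pooled over both groups had a median of 0.26 over the members, equal to the 0.26 over all features, and ran from 0.12 in MRPL32 to 0.89 in MRPL54. MRPL54, a protein of the large subunit found in mitochondria alone, measured 4.84, 7.39, 7.23, 5.32 and 7.04 on MO1 to MO5, against 6.61, 8.06, 7.07, 7.53, 6.81 and 6.93 on CON1 to CON6. MO1 and MO4 lay below every other array, while MO2, MO3 and MO5 lay among the controls. It was detected on 3 of the 5 maternal obese arrays and on all 6 control arrays, and its difference was -0.80 (SE 0.45).

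Maternal obesity gave no member a difference past the threshold. Of the 61 members, 0 had an adjusted p under 0.05 in limma's moderated test with Benjamini-Hochberg adjustment, as did 0% of all 10173 features. At an unadjusted p under 0.05 there were 6 of 61 members (9.84%), against 12.9% of all features. 3 of them were higher (background 9%) and 3 lower (background 3.91%). The smallest adjusted p of a member was 0.359. No member had maternal obese and control values without overlap, against 1.43% of all features. The members' differences had a median of 0.023 and ran from -0.80 in MRPL54 to 0.41 in MRPL57, and the median of all features was 0.051. 30 members lay below 0, or 49.2%, against 41.3% of all features. The median was -0.008 over the large and 0.036 over the small subunit, and the median SE of a member was 0.16. Scaling each array to its median in place of quantile normalization put 51 of 61 members below 0, with 68.3% of all features and a median of -0.127 over all features.

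Among the members with lower values in maternal obese livers, MRPL35, a large subunit protein with a bacterial counterpart, measured 8.97, 8.31, 9.10, 8.38 and 9.01 on MO1 to MO5, against 9.24, 9.68, 9.97, 9.60, 8.99 and 8.70 on CON1 to CON6. Its lower values were shared by all of slide 2, since CON5 and CON6 lay below CON1 to CON4 as well. The difference was -0.60 (SE 0.23, adjusted p = 0.359 by limma). MRPL39, a large subunit protein found in mitochondria alone, averaged 6.51 ± 0.31 in maternal obese livers (SD, n = 5) and 7.09 ± 0.57 in control livers (SD, n = 6), a difference of -0.58 (SE 0.25). MRPS21, MRPS33 and MRPS35, all of the small subunit, had differences of -0.62, -0.61 and -0.61. MRPS10 and MRPS28, small subunit proteins with bacterial counterparts, differed by -0.30 and -0.31, and MRPS6 by -0.22. None of these passed the threshold, with adjusted p-values by limma of 0.359 to 0.397.

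Higher values in maternal obese livers reached a difference of at most 0.41. MRPL23, a large subunit protein with a bacterial counterpart, measured 10.54, 10.39, 10.77, 10.82 and 10.74 on MO1 to MO5, against 10.32, 10.34, 10.45, 10.23, 10.33 and 10.59 on CON1 to CON6. 3 maternal obese arrays lay above every control and the other 2 among the controls, with a difference of 0.28 (SE 0.12, adjusted p = 0.364 by limma). MRPS16, mutated in a combined deficiency of the respiratory chain, averaged 9.0 ± 0.33 in maternal obese livers (SD, n = 5) and 8.66 ± 0.17 in control livers (SD, n = 6), a difference of 0.35 (SE 0.15). The remaining differences of this direction were 0.29 for MRPL43, 0.41 for MRPL57, 0.28 for MRPS26, 0.18 for MRPL49, 0.27 for MRPL14 and 0.21 for MRPL55. Adjusted p-values by limma for these 8 genes ran from 0.364 to 0.550. MRPL14 is known to bind MALSU1, an assembly factor of the large subunit.

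Members with a well-known place or role in the ribosome mostly showed differences near their SE or below it, apart from MRPS18C and from MRPS16, given above. MRPL12, the stalk protein that has also been reported to bind the mitochondrial RNA polymerase, averaged 8.47 ± 0.26 in maternal obese livers (SD, n = 5) and 8.43 ± 0.34 in control livers (SD, n = 6). MRPL10, which anchors the stalk, differed by -0.08 (SE 0.21), and MRPL11, at the stalk base, by 0.06 (SE 0.13). MRPS12, of the decoding centre, differed by 0.08 (SE 0.14). MRPS22, mutated in a combined deficiency of the respiratory chain, differed by -0.11 (SE 0.13). Of the S18 paralogues, which are thought to occupy different ribosomal sites, MRPS18A differed by 0.02, MRPS18B by 0.15 and MRPS18C by -0.39 (SE 0.20). MRPS30 differed by -0.08 (SE 0.12). Adjusted p-values by limma were above 0.40 for all of these genes except MRPS16, at 0.373.

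The 40 members with a bacterial counterpart had a median difference of 0.062, and the 21 found in mitochondria alone had a median of -0.089. With slide as a covariate these medians were -0.003 and -0.026. Without that covariate, the median was -0.008 over 58 cytosolic ribosomal proteins and 0.053 over 20 subunits of respiratory complex I. None of these genes was called either. At a size of 0.5 or more, 7 of the 61 members differed between maternal obese and control livers (11.5%), against 7.3% of all features.

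**Figure D3:**
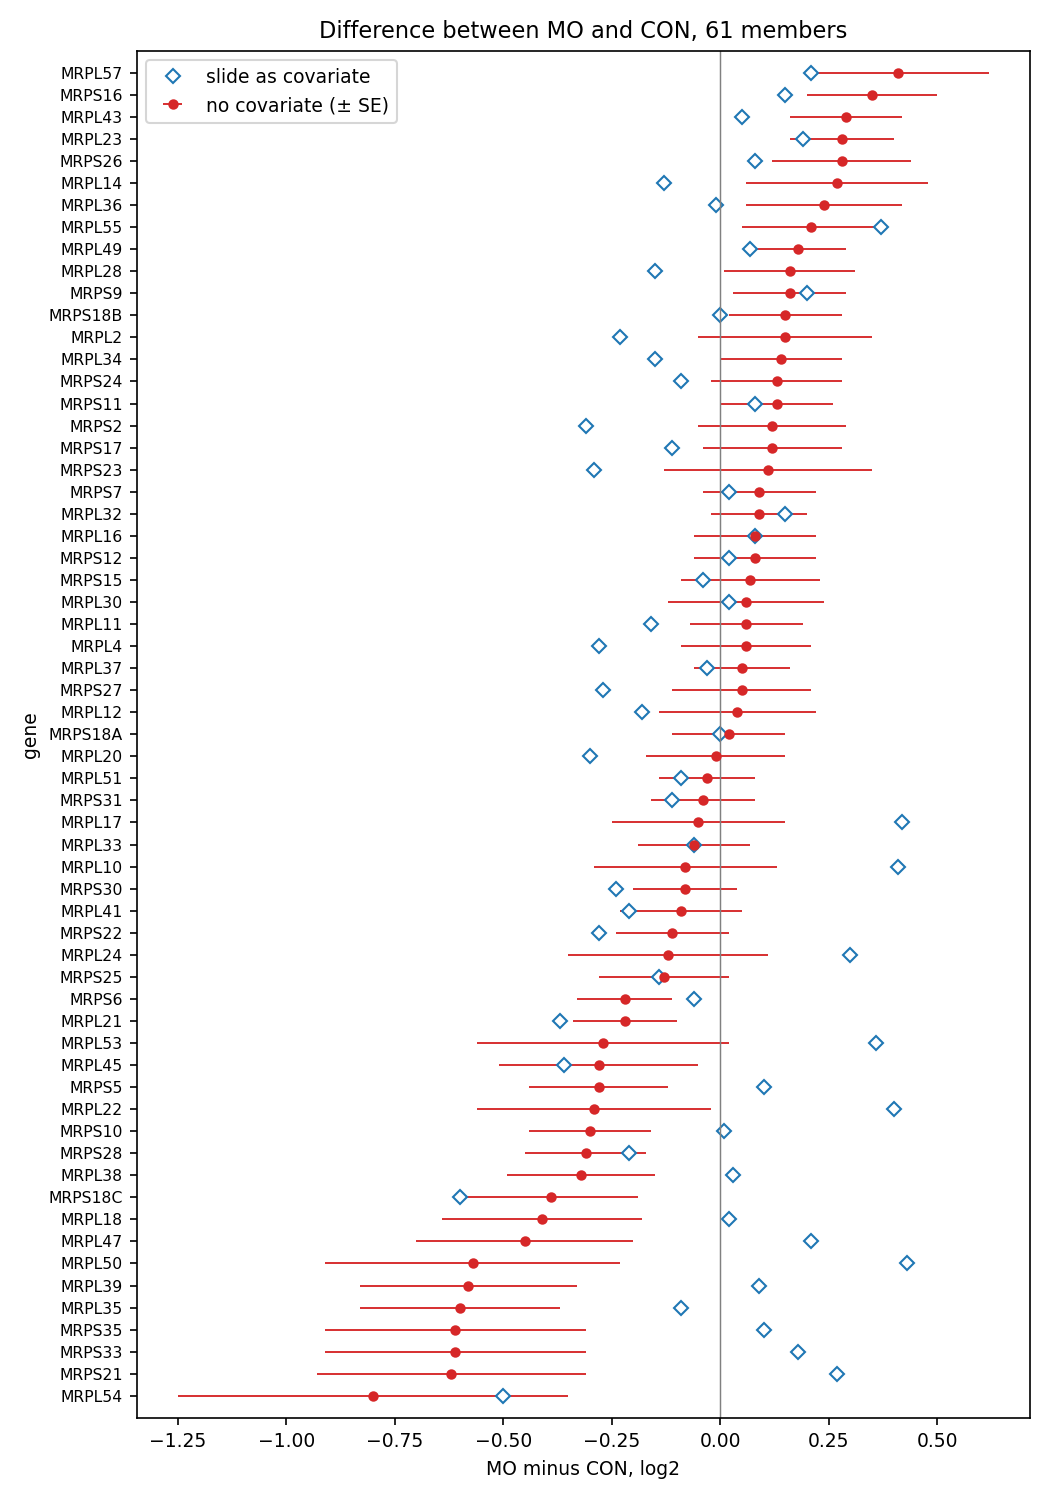
Difference between maternal obese and control livers for each of the 61 members (horizontal axis, MO minus CON, log2). Red points with bars are the fit with no covariate ± SE, and open blue diamonds are the fit with slide as a covariate. Among the lowest genes MRPS21 stands at -0.62 without and 0.27 with the slide, so the diamonds at the bottom lie right of their points.

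With slide as a covariate the comparison rests on slide 2, where 5 maternal obese arrays stood beside CON5 and CON6. The members' median difference was then -0.005 (all features 0.001), with 0.021 over the large and -0.025 over the small subunit. No member passed the threshold, against 0.00983% of all features (1 feature), and 1 of 61 members had an unadjusted p under 0.05, against 7.74% of all features. Directions turned for 6 of the 16 members with the smallest p in either direction. MRPL39 was 0.09, MRPS21 0.27, MRPS33 0.18, MRPS35 0.10, MRPS10 0.01 and MRPL14 -0.13 with the slide in the fit. MRPL35 was -0.09, a difference far smaller than without the slide. MRPL23 was 0.19 and MRPS16 0.15.

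The same values came from slide 2 analysed alone, where 0 members and 0% of features were called. An unadjusted p under 0.05 was found for 2 of 61 members there, against 8.31% of all features. Maternal obese and control values of slide 2 did not overlap in 6 of 61 members (9.84%), against 13.8% of all features. In MRPL20, MRPL21, MRPS22, MRPS27 and MRPS30 all maternal obese arrays lay below both controls of slide 2, as they did in MRPL4. MRPL21 measured 8.93, 8.57, 8.81, 8.58 and 8.77 on MO1 to MO5, against 9.16 and 9.05 on CON5 and CON6. Its within-slide difference of -0.37 stood beside -0.22 over all arrays.

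Members were called between the slides, 7 of them lower and 1 higher on slide 2. With condition as a covariate, 8 of 61 members had an adjusted p under 0.05 (13.1%), against 8.35% of all features. The background for the lower ones was 5.43% and for the higher one 2.92%. Of the lower ones, MRPL47, MRPS5 and MRPS21 met the detection minimum only with slide 1, where they were high. With condition in the fit, each difference equals the mean of CON5 and CON6 minus the mean of CON1 to CON4, and the maternal obese arrays add only to the estimate of spread. CON5 and CON6 were males and 3 of the 4 arrays of slide 1 females, and with sex as a further covariate 0 of the 8 calls remained (0 of 61 members, against 1.14% of all features). The median over members was 0.103, near the 0.108 of all features, with 0.098 over the large and 0.107 over the small subunit. The members went both ways in both subunits, since 23 members lay below 0 (background 38.7%) and 38 above it. Some cell markers differed between the slides as well. 9 of 11 hepatocyte markers lay below 0 (background 38.7%), and 2 of the 11 were called lower on slide 2 (background 5.43%). They were FGB, a fibrinogen chain, at -1.39 and APOH, a plasma apolipoprotein, at -1.56 (adjusted p = 0.00507 and 0.0469 by limma). The hepatocyte score ran from -0.33 to 0.13 on slide 2 and from -0.10 to 0.43 on slide 1. Of 12 macrophage markers, 8 lay above 0 and 4 below it, with a median of 0.17. CD68 alone was called, lower at -1.19 (adjusted p = 0.0443 by limma), against the direction of most of its list. Macrophage scores ran from -0.54 to 0.64 on slide 2 and from -0.10 to 0.44 on slide 1. No erythroid, stellate, endothelial or B cell marker was called between the slides, though 7 of 8 erythroid markers lay above 0. The part of these markers in the members' slide differences was not tested. Called genes numbered 8 of 58 among cytosolic ribosomal proteins and 3 of 20 among complex I subunits, beside the 8 of 61 members (background 8.35%).

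MRPL50, a large subunit protein found in mitochondria alone, had the largest slide difference of a member. It measured 5.72, 5.36, 5.93, 5.77 and 6.17 on MO1 to MO5 and 5.40 and 5.32 on CON5 and CON6, against 6.59, 7.08, 7.33 and 6.44 on CON1 to CON4 of slide 1. Every array of slide 2 lay below every array of slide 1. The difference was -1.50 (SE 0.26, adjusted p = 0.00716 by limma). CON5 and CON6 did not show it above background, so the controls of slide 2 were at least 2.68-fold lower than those of slide 1.

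MRPS21, a small subunit protein with a bacterial counterpart, measured 5.16, 5.37, 5.59, 5.65 and 5.25 on MO1 to MO5 and 5.32 and 4.94 on CON5 and CON6, against 6.30, 6.44, 7.02 and 6.15 on slide 1. The slides were again apart, with a difference of -1.35 (SE 0.24, adjusted p = 0.0072 by limma). Controls of slide 2 were at least 2.06-fold lower than controls of slide 1. Such bounds set the mean of slide 1 against the lowest detected signal of CON5 and CON6, or the probe's own value where higher.

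Among the other lower members, MRPS33, of the small subunit, averaged 7.15 ± 0.36 on slide 2 (SD, n = 7) and 8.20 ± 0.34 on slide 1 (SD, n = 4). Its slide difference, which sets the mean of 7.02 of CON5 and CON6 against slide 1, was -1.18 (SE 0.28, adjusted p = 0.0265 by limma). MRPL22, whose bacterial counterpart lines the exit tunnel, averaged 9.05 ± 0.35 on slide 2 (SD, n = 7) and 9.79 ± 0.40 on slide 1 (SD, n = 4). CON5 and CON6 averaged 8.76, which gave a slide difference of -1.04 (SE 0.27, adjusted p = 0.0375 by limma). The slides overlapped, since MO1, MO3 and MO5 at 9.33, 9.35 and 9.37 lay above CON4 at 9.22. MRPL39 differed by -1.0 (SE 0.23) and MRPL47 by -0.99 (SE 0.24), with adjusted p-values by limma of 0.0243 and 0.0268. MRPS5, of the small subunit, differed by -0.57 (SE 0.15, adjusted p = 0.0421 by limma). MRPL47 and MRPS5 were also below background on CON5 and CON6, which gave bounds of at least 1.44-fold and at least 1.38-fold lower. MRPL47 was detected on all 4 arrays of slide 1 and 1 array of slide 2, so it met the detection minimum through the slide on which it was high. The same holds for MRPS21, detected on all 4 arrays of slide 1 and 3 of slide 2. It also holds for MRPS5, detected on 7 arrays with all 4 of slide 1 among them.

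MRPS2, of the small subunit, was the 1 member called higher on slide 2. It measured 6.47, 6.50, 6.43, 6.91 and 6.69 on MO1 to MO5 and 6.90 and 6.92 on CON5 and CON6, against 6.29, 6.11, 6.49 and 6.18 on slide 1. MO1 and MO3 lay below CON3, so the slides overlapped. The difference was 0.64 (SE 0.17, adjusted p = 0.0364 by limma). MRPL4, MRPL34, MRPL28, MRPS27 and MRPL14 had differences of 0.51, 0.45, 0.45, 0.48 and 0.61 without passing the threshold.

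**Figure D4:**
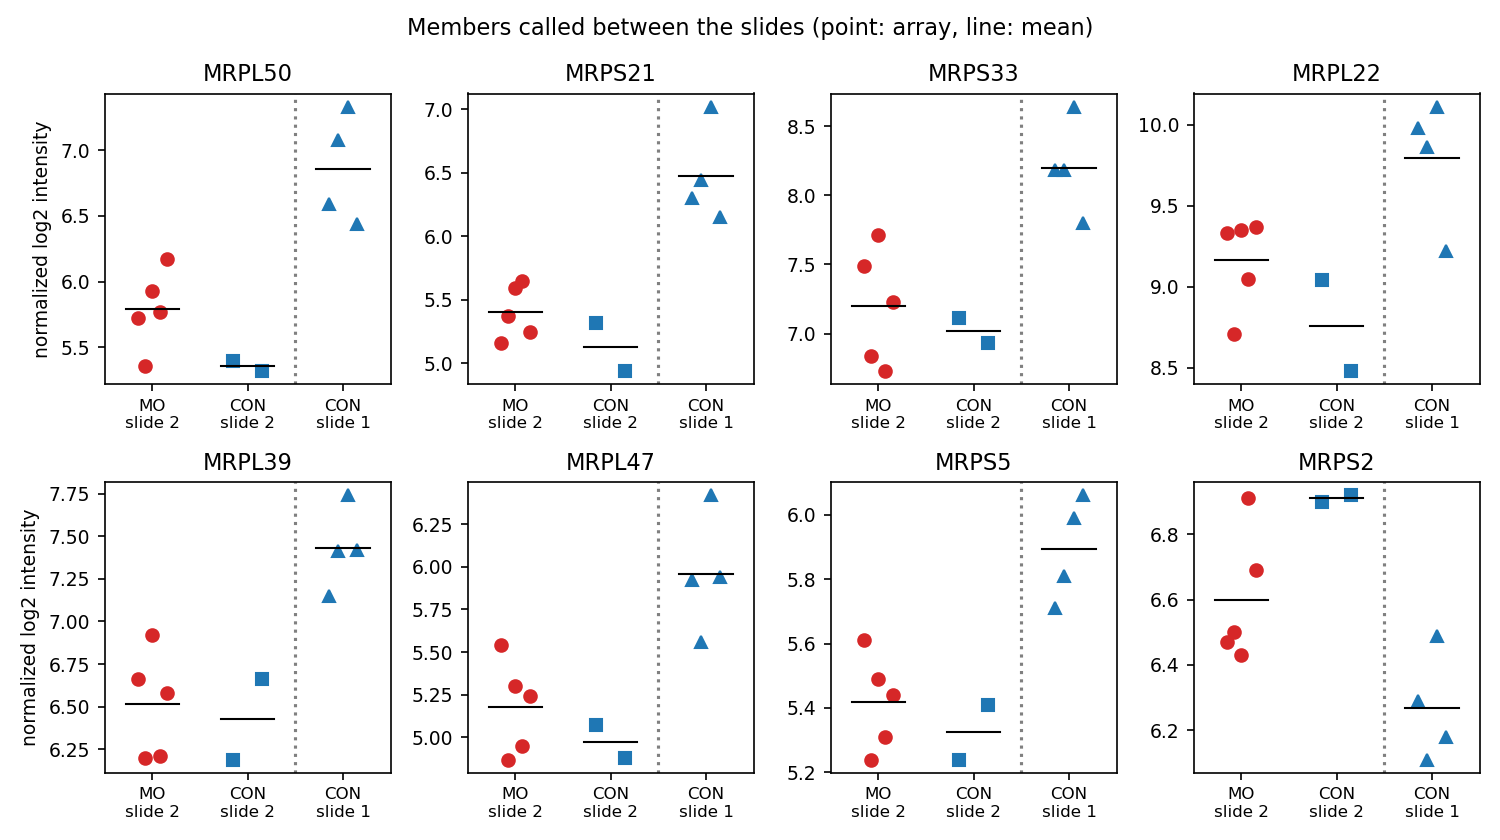
Normalized log2 intensity (vertical axis) of the 8 members called between the slides, with 1 point per array and a line at each mean, for MO on slide 2, CON on slide 2 and CON on slide 1. In MRPL50 the 7 arrays of slide 2 lie between 5.32 and 6.17 and the 4 arrays of slide 1 between 6.44 and 7.33. CON5 and CON6 lie below all 4 arrays of slide 1 in the 7 genes that were lower.

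Counting arrays without a fit, 14 of 61 members had slide 2 and slide 1 values without overlap, against 13% of all features. 11 of them had every slide 2 array below every slide 1 array (background 4.8%), namely MRPL35, MRPL38, MRPL39, MRPL47, MRPL50, MRPS5, MRPS6, MRPS10, MRPS21, MRPS33 and MRPS35. The other 3, MRPL28, MRPL34 and MRPL43, had every slide 2 array above (background 8.18%). MRPL47, MRPS5 and MRPS21 met the detection minimum only with slide 1, and MRPL28 only with slide 2, in each case the slide where they were high. A slide difference of -0.5 or less was found in 15 members, against 11.8% of all features. Of those 15, 11 were of the large subunit, as were 35 of all 61 members.

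The slide calls rest on few arrays. With sex as a covariate 116 features were called and no member, and the 8 genes had differences from -1.48 in MRPL50 to 0.52 in MRPS2, and -0.86 in MRPS33 and -0.85 in MRPL22. Among the male controls slide 1 was CON4 alone, so their values are given as a description. MRPL50 was -1.08, MRPS21 -1.02, MRPL39 -0.99, MRPL47 -0.97, MRPS33 -0.79, MRPS5 -0.74, MRPL22 -0.46 and MRPS2 0.73 there. In the 6 controls alone, 3 members (MRPL50, MRPS21 and MRPS33) and 361 features (3.55%) were called. Without CON6, 0 members and 44 features (0.433%) were called, and without CON5 the 1 member was MRPS21, with 194 features (1.91%). MRPL50, MRPS2 and MRPS21 remained without CON3, with 456 features (4.48%). Without MO5, 5 members (8.2%) and 6.54% of features were called, and without MO2, 11 members (18%) and 8.26% of features. On the genes detected on all 11 arrays, 4 of 51 members (7.84%) and 7.72% of features were called, so the members' share was then near the background. The slide and the fetuses that lay on it cannot be told apart further with these arrays.

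Genes with a second kept probe gave a further reading of the same RNA. There were 14 of them, and the probes of a gene shared the sign in 10 of 14 genes for maternal obese minus control and in 11 of 14 for slide 2 minus slide 1. The brighter probe of MRPL39 fell by 1.0 on slide 2, while its dimmer probe, detected on 6 arrays, was 0.71. MRPL10 was -0.73 with the brighter and 0.43 with the dimmer probe. For MRPS33 the values were -1.18 and -0.14, and for MRPL22 -1.04 and -0.29, so the second probe of both showed a small part of the difference. With the mean of both probes in place of the brighter one, MRPL39 (-0.15), MRPS33 (-0.66) and MRPL22 (-0.66) were no longer called, at adjusted p-values by limma of 0.728, 0.0589 and 0.0692, and MRPL18 was called at -1.19. MRPL18 (-0.64 and -1.73) and MRPL24 (-0.63 and -1.22) ran lower on slide 2 with both probes, and more so with the dimmer one. The largest gap between probes of a gene was 1.71 for the slide and 0.67 for maternal obesity. MRPL50, MRPS21, MRPL47, MRPS5 and MRPS2 each had a single kept probe, so no second reading was at hand.

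**Figure D5:**
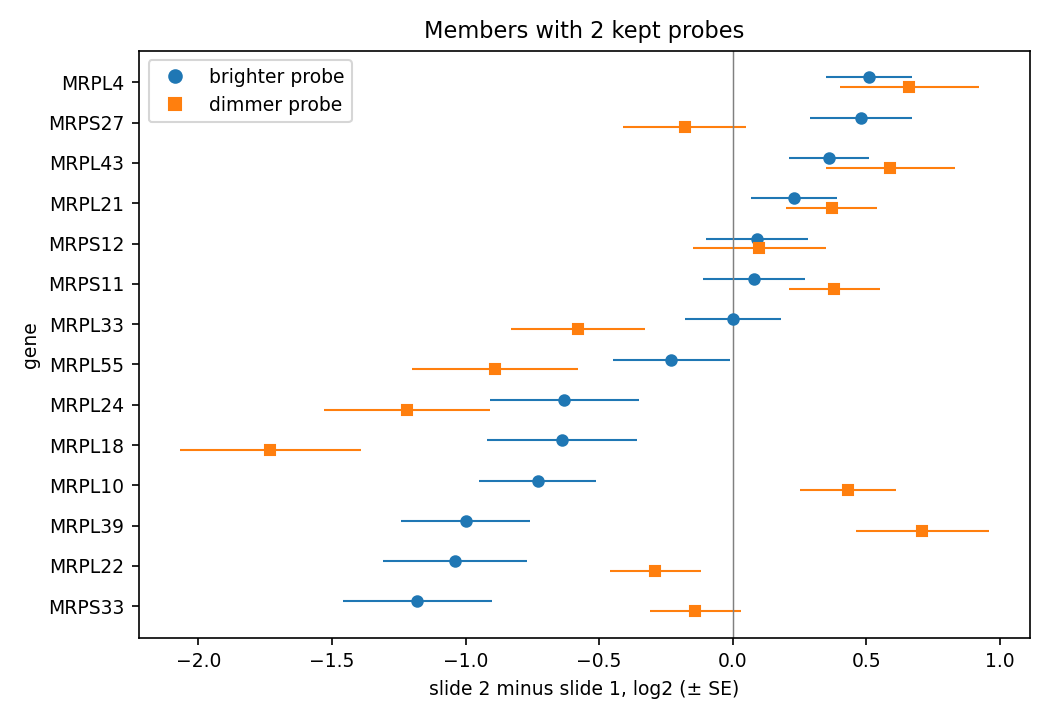
Slide difference (horizontal axis, slide 2 minus slide 1, log2 ± SE) of the brighter probe (blue circle) and the dimmer probe (orange square) of 14 genes with a pair of kept probes. Probes of MRPL39 stand at -1.0 and 0.71 and those of MRPL10 at -0.73 and 0.43, on opposite sides of 0.

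By sex, no member was called among females or among males (background 0% in both). At an unadjusted p under 0.05, limma gave 13 of 61 members in females (21.3%), against 13.1% of all features. 12 of them were lower (background 7.37%) and 1 was higher (background 5.75%). In males it gave 1 of 61, MRPL23 at 0.40, against 8.94%. In females MRPL50 was -1.33, MRPS21 -1.22, MRPL22 -0.86 and MRPS10 -0.57, with adjusted p-values by limma of 0.165 to 0.180. MRPL50, MRPS10 and MRPS21 were called in females with array weights (3 of 61, or 4.92%, against 2.19% of all features), and likewise without CON4 (against 2.89%). All maternal obese females lay on slide 2 and all control females on slide 1, so maternal obesity and slide cannot be told apart in females. In males, MO4 and MO5 shared slide 2 with CON5 and CON6, and CON4 lay on slide 1. The median over members was 0.018 in females (all features 0.076) and 0.027 in males (all features 0.060).

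For the interaction, the female difference minus the male difference, 0 members and 0% of features were called. An unadjusted p under 0.05 was found in 6 of 61 members, against 7.28% of all features, and all 6 lay below 0 (background 4.23%). MRPL50 was at -1.58 (SE 0.46), MRPL53 at -1.26 (SE 0.39) and MRPL22 at -1.16 (SE 0.35), the others being MRPL17, MRPS10 and MRPS21. With slide as a covariate these 3 were -0.86, -1.07 and -0.85. That fit takes the slide from CON4 against CON5 and CON6, so it rests on CON4 alone for slide 1 in males. With it, the members' median difference in females was -0.198 (all features -0.071), and 44 of 61 lay below 0 (background 57.2%).

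The other genes of mitochondrial translation were read from lists, and 0 of their genes were called between maternal obese and control livers. Of the mitoribosomal proteins with other names, DAP3, a GTP-binding protein of the small subunit, was 0.04 and CHCHD1 was -0.29, and 3 of the 5 listed were not measured. Of 30 assembly factors, 14 were measured with a median of 0.09, from 6 below and 8 above 0. GTPBP6, a GTPase that also takes part in ribosome recycling, was 0.68 (SE 0.17, adjusted p = 0.269 by limma). RPUSD3 was 0.30, FASTKD2, an RNA-binding protein, -0.49 and MALSU1 -0.42.

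A list of 24 translation factors and other genes of mitochondrial translation had 13 measured, with a median of 0.07. MRRF, the ribosome recycling factor, was 0.36, and SLIRP and LRPPRC, which bind mitochondrial messenger RNA as partners, were -0.98 and 0.30. TRIT1, a tRNA modifying enzyme, was -0.64. A list of 22 mitochondrial aminoacyl-tRNA synthetases and related genes had 11 measured, GATB, GARS1 and KARS1 among them. Their median was -0.08, with AARS2 at 0.58 and IARS2 at -0.84. Of 20 genes of mitochondrial genome expression, 15 were measured with a median of -0.03, with TWNK, the mitochondrial helicase, at 0.52 and SSBP1, the single-strand binding protein, at -0.61.

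With slide as a covariate SLIRP was 0.22, IARS2 0.25, TRIT1 0.03 and SSBP1 0.43, while GTPBP6 was 0.60 and TWNK 0.48. Between slides, 3 of 13 genes of the translation factor list (GFM1, SLIRP and TRIT1) were called lower on slide 2. So was 1 of 11 genes of the synthetase list (IARS2). SSBP1, 1 of 15 genes of mitochondrial genome expression, was called lower too (background 5.43% for lower calls). MTERF3, 1 of 14 genes of the assembly list, and PPRC1, a regulator of mitochondrial gene expression, were called higher (background 2.92%). SLIRP differed by -1.80 (SE 0.29) there. IARS2 was below background on CON5 and CON6, which were at least 2.36-fold lower than the controls of slide 1. With sex as a further covariate 1.14% of all features were called between the slides, and the genes of these lists were not read in that fit.

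Among markers of other cells, all 12 measured Kupffer cell and macrophage genes of 14 listed lay below 0 in maternal obese minus control (background 41.3%). Their median was -0.32 and none was called. Scores of these markers ran from -0.54 to 0.12 on maternal obese arrays and from -0.32 to 0.64 on control arrays. Erythroid scores ran from -0.27 to 0.45 on maternal obese arrays and from -0.96 to 0.82 on control arrays. Of the stellate cell and matrix markers, 1 of 11 lay below 0, with a median of 0.50, the largest in size of these lists. B cell markers had 3 of 4 below 0 and a median of -0.37. Erythroid markers had 2 of 8 below 0 (median 0.16) and endothelial markers 3 of 9 (median 0.06). None of these markers was called either. The part of these cell markers in the members' values was not tested. Without CON3 and MO2, the arrays at the ends of the subunit scores, 0 members were called and the medians were 0.099 over the large and 0.042 over the small subunit.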

How the data were processed

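Total RNA was extracted and amplified to labelled cRNA, per the labels' protocols. The deposited table holds, per probe and array, a detection p-value and an intensity on a linear scale. GenomeStudio and Partek are listed, with no version or role, in the submitters' processing notes. A deposited matrix of log2 values matched the log2 of those intensities within 5.00e-09, so they were not normalized between arrays, and their column medians ran from 5.95 to 6.33. They were not used further. All value columns had a sample (0 unmatched).

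Normalization used limma 3.58.1 under R 4.3.3 (neqc: normexp background correction with negative controls inferred from the detection p-values, offset 16, quantile normalization, log2). The minimum of 5 arrays with a detection p under 0.05 left 11475 of 48803 probes. Gene symbols came from the platform annotation, which gave 1 symbol to 28098 probes, several to 13 and none to 20692. Symbols were used as given there. The brightest probe of each symbol gave 10173 features, 8043 of them named. Probes of a gene with a pair of probes were fitted together with all 11475 kept probes, so their SE can differ slightly from the gene's own. Related or pseudogene transcripts may share a probe, and this was not checked.

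Differences were tested with lmFit and eBayes and adjusted by Benjamini-Hochberg over all features, at 0.05. The comparison of maternal obese with control livers had no covariate, slide had condition as a covariate, and the contrasts by sex came from a fit of 4 group means. Each SE is the moderated one from limma, and each SD is taken between arrays. The number of arrays limits the precision, and p-values set each difference against the spread between these fetal samples. Genes named were members past the threshold, the 8 per direction with the smallest p for maternal obesity, the 6 per direction for the slide, the 3 for the interaction, those with a pair of kept probes and those with a known role. Others, such as MRPL54, the genes listed for not overlapping and the further genes of the interaction, were named after their values were seen. The members, lists and tests were chosen with earlier results of these data known. Alternatives covered background correction, normalization, detection filter, probe choice, array weights, sex, slide and leaving out each array. Leaving out CON3 and MO2 together was chosen after seeing the data. Figures were drawn with matplotlib 3.10.9.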

Additional observations from a re-analysis of the deposited data

Results flagged for a closer look

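Dixon's criterion was applied to 84 sets of values within 1 group, from the 40 named members of 61 and both subunit scores. 5 sets had an array apart from the rest and chance alone gives about 1 in 20. MRPL33 stood at 10.4 on MO4, with the nearest maternal obese array at 10.92. MRPL53 stood at 5.72 on MO2, with the nearest at 6.57. MRPL57 stood at 5.98 on MO5, with the nearest at 6.70. MRPS26 stood at 7.96 on CON4, with the nearest control at 8.61, and MRPS28 at 9.82 on CON3, with the nearest at 9.37. Without CON4 the difference of MRPS26 was 0.15, against 0.28 with it, and without MO5 that of MRPL57 was 0.57, against 0.41.

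Of the 40 named members, MRPL53 moved in opposite directions in the sexes, at -0.89 in females and 0.37 in males, with no overlap between groups in either sex. It was among the named members because its interaction p was 1 of the 3 smallest in these same data, so the pattern is no separate support. The share of all features with such a pattern was not counted. The interaction was -1.26, with an unadjusted p of 0.00738 and an adjusted p of 0.562 by limma, so it missed the threshold. With slide as a covariate it was -1.07. In females slide and maternal obesity cannot be told apart.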

How the results depend on the processing

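No member was called between maternal obese and control livers under any alternative run on all features, and 0 to 1 feature was called when an array was left out. Array weights called 7 features, sex 1 and slide 1. Scaling each array to its median in place of quantiles shifted the median of all features to -0.127, against 0.051, with 51 of 61 members and 68.3% of all features below 0. The subunit medians were then -0.251 (large) and -0.198 (small), in males -0.309 and -0.347, and for the interaction 0.239 and 0.095, and MRPL55 was -0.02. The small subunit median was -0.084 with slide as a random block, -0.088 with slide and sex, and -0.071 to 0.059 without 1 array. MRPL55 was -0.12 with the mean of the kept probes. Slide as a covariate, and equally slide 2 alone, turned MRPL14 (-0.13), MRPL39 (0.09), MRPS10 (0.01), MRPS21 (0.27), MRPS33 (0.18) and MRPS35 (0.10). Slide and sex together turned MRPL57 (-0.06), MRPS26 (-0.09), MRPL14 (-0.37), MRPL39 (0.01), MRPS10 (0.06) and MRPS21 (0.20), and the males of slide 2 turned MRPL14 (-0.24), MRPS10 (0.14) and MRPS21 (0.32).

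Between slides, the 8 members called (13.1%, features 8.35%) became 5 with median scaling (8.2%, features 6.86%). They became 5 of 78 with no detection filter (6.41%, features 2.02%) and 4 of 51 with detection on all 11 arrays (7.84%, features 7.72%). The mean of probes gave 6 members (9.84%, features 8.63%), and array weights gave 12 (19.7%, features 10.1%). Sex as a covariate left 0 members (116 features), and controls alone gave 3 (361 features). In male controls 0 members and 0 features were called, which says nothing of stability because slide 1 is CON4 alone. The small subunit median was 0.231 with detection on all arrays, where fewer genes were tested, and 0.337 in male controls. Leaving out 1 array gave 44 to 945 features and 0 to 11 members.

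In females, features called were 5 with no background correction, 5 with an offset of 50, 1 with no filter, 2 with detection on all arrays, 6 with the mean of probes and 223 with array weights. Array weights called 3 members, and leaving out 1 array gave 0 to 294 features and 0 to 3 members, the most without CON4 (MRPL50, MRPS10 and MRPS21). The small subunit median was 0.066 with detection on all arrays, and the medians were -0.191 (large) and -0.199 (small) with slide. In males array weights called 2 features and leaving out 1 array 0 to 4. For the interaction, leaving out 1 array gave 0 to 14 features, and array weights medians of 0.133 (large) and -0.03 (small). The cause of these changes was not tested. No paired analysis was run, because each array is a different fetus and the labels name no pairs. Members below background on some arrays, such as MRPL47, have only a bound there.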
